A study of Homo sapiens with 6 samples.

Results

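ZNF genes were compared in MIA PaCa-2, a cell line established from a human pancreatic carcinoma, between cells with the genotype label LINC00901 KO, in which a long non-coding RNA gene is knocked out, and cells labelled Vector Control. A member was a row of the deposited FPKM table (fragments scaled to transcript length and library size) with a single symbol that began with ZNF and a digit, and with a mean of at least 2 FPKM over the libraries. Of the 18268 rows, 384 carried such a symbol, and 132 of these were members. The other ZNF rows were 42 listed at 0 in all 6 libraries and 210 above 0 with a mean under 2 FPKM. All 132 members also passed the filter on low values of the test, at least 1 FPKM in at least 3 libraries, as did 9624 rows in all. The 6 total RNA libraries were 3 of the knockout (KO 1 to 3) and 3 of the control (vector control 1 to 3). Both groups were grown in the same serum-supplemented medium. The labels do not say how the knockout was made, whether the cells were 1 clone or a pool, or whether the libraries came from separate cultures, so the p-values measure only the spread between these samples.

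C2H2 zinc finger proteins bind DNA through arrays of short modules, each folded around a zinc ion held by a cysteine pair and a histidine pair. They form the most numerous class of human transcription factors. Many carry a KRAB box, which recruits the scaffold protein TRIM28 and, through it, the histone methyltransferase SETDB1 and heterochromatin proteins, and much of this group sits in gene clusters on chromosome 19 and represses transposable elements. ZNF proteins without a KRAB box have other roles, among them activation of promoters, work in chromatin complexes, RNA binding and ribosome assembly. ZNF is a naming root rather than 1 lineage, so the members share the finger more than a function.

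The encoded proteins were examined for the domains of the family. In the longest translated GENCODE 29 transcript of each member, the median number of C2H2 fingers was 9.5, with 31 in ZNF91 and ZNF142 and 0 in ZNF330. A KRAB box, scored by alignment to the first 75 residues of ZNF10, was found in 66 members, of which 37 lie on chromosome 19. The other 66 members had none, and 12 of these lie on that chromosome. KRAB members had a median of 11.5 fingers and a median level of 2.96 FPKM, against 7 fingers and 4.06 FPKM for members without the box.

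The promoter windows of 6 members are shown because their levels are described below: ZNF691, the single member past the test, ZNF680, ZNF717 and ZNF460, which were higher in every KO library than in any vector control, and ZNF143 and ZNF330, which were lower. Each runs from 250 bases before to 50 bases after the gene's start in RefSeq on GRCh38.p14, read 5′ to 3′ on the gene's strand. The expression values were made on hg19, and the windows were matched by symbol. Capitals mark matches on either strand to any of 8 short motifs. ACTACAA is the core that ZNF143 recognises. The ETS family of activators recognises CCGGAAG, and the respiratory gene regulator NRF1 recognises GCATGCG. The letters GATGGCG belong to the site of YY1. Factors of the SP family bind GGGCGG, and the trimeric factor NF-Y binds the box CCAAT. The last pair of motifs are the TATA box, written TATAAA, and a promoter palindrome, of which one side is written TCTCGCG.
ZNF691, chr1:42846363-42846662, plus strand: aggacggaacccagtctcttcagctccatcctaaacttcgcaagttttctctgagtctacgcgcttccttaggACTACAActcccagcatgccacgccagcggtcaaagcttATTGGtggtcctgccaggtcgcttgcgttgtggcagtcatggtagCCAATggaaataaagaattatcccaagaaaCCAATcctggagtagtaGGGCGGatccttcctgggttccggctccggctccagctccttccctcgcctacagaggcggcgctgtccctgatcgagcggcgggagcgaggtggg
ZNF680, chr7:64563022-64563321, minus strand: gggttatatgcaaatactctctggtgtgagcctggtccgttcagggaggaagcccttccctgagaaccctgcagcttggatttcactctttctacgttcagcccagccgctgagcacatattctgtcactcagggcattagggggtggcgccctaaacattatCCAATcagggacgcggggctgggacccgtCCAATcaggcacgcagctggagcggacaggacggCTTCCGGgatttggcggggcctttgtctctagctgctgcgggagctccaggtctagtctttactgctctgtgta
ZNF717, chr3:75785500-75785799, minus strand: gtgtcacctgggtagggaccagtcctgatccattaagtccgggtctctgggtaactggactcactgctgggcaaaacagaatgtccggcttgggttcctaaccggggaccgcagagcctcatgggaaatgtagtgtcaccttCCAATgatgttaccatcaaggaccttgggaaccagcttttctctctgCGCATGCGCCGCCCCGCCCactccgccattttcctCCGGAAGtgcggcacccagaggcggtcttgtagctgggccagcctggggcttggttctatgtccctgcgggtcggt
ZNF460, chr19:57279732-57280031, plus strand: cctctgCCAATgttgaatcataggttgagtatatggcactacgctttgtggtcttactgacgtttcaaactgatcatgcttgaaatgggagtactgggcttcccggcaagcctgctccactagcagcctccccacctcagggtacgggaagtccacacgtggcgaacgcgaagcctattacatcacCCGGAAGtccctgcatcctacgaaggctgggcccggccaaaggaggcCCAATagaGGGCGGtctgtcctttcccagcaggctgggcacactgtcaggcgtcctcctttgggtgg
ZNF143, chr11:9460762-9461061, plus strand: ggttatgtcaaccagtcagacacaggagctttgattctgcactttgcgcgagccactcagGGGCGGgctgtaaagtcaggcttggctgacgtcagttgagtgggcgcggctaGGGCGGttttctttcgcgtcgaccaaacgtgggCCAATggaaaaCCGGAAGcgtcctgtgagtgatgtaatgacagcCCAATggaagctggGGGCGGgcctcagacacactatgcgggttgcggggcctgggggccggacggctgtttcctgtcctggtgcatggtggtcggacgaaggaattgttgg
ZNF330, chr4:141220645-141220944, plus strand: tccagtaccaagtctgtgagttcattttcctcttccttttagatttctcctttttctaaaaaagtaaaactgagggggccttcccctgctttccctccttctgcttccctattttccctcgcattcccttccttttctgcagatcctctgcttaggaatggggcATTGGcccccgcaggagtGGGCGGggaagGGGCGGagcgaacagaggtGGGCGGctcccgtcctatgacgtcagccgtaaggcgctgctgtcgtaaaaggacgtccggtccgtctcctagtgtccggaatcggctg

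The ZNF691 window held 1 ZNF143 core, 1 SP and 3 NF-Y matches, and the ZNF143 window 1 ETS, 3 SP and 2 NF-Y matches. In the ZNF717 window the NRF1 matches overlap each other and abut the SP matches, which also overlap. Of the 132 members, 116 had a window. The ETS letters CCGGAAG were present in 47 of them (40.5%), against 21.4% of 7072 windows of tested rows and 14.2% of all 15840 windows of protein-coding genes. This share was 42.1% among KRAB members and 39% among members without the box, and 10 of 23 windows held it among members that were higher in all KO libraries and 3 of 6 among those that were lower. The ZNF143 core was in 6.9% of member windows against 4.09% of those of tested rows, the YY1 letters in 10.3% against 8.58% and the NF-Y box in 40.5% against 37.3%. The SP letters were in 67.2% against 73.3%, the NRF1 letters in 4.31% against 6.77%, the palindrome in 5.17% against 7.24% and the TATA box in 3.45% against 4.85%. These are matches of letters only, and the windows were not compared with any measure of binding. For the shares a window counted once however many matches it held, while in the single windows each match was counted.

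The libraries differed both within and between the groups. LINC00901 was named by 0 rows, so the knockout could not be checked and every direction rests on the labels. FPKM summed to 123107 to 130151 per library in the KO group and 130004 to 134389 in the vector controls. Replication-dependent histone genes made up 2.94%, 5.05% and 5.09% of that sum in KO 1 to 3 and 6.1%, 2.75% and 3.17% in vector control 1 to 3, so that vector control 1 stood with KO 2 and KO 3, and KO 1 with vector control 2 and 3. The epithelial marker KRT18 averaged 40.8 ± 15.3 FPKM in KO and 76 ± 4.91 FPKM in vector control, with groups that did not overlap, and KRT19 17.2 ± 6.84 FPKM in KO and 30.3 ± 11.4 FPKM in vector control (SD, n = 3 each; limma adjusted p = 0.147 for KRT18 and 0.324 for KRT19). EPCAM and CDH1 were at or near 0 in all libraries, and vimentin (VIM) was at 459.52 FPKM or more. Leukocyte, endothelial, acinar and islet markers, where they had a row of their own, summed to at most 0.34 FPKM per list and library. Of the fibroblast markers DCN was listed at 0 in all 6 libraries and LUM was at most 0.17 FPKM. COL1A1 was between 0.96 and 3.95 FPKM, while COL1A2 averaged 52.8 ± 2.97 FPKM in KO and 31.6 ± 6.02 FPKM in vector control (SD, n = 3 each). The COL1A2 groups did not overlap (limma adjusted p = 0.119).

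As a family the ZNF members stood slightly higher in knockout cells. In each library the median over the members of log2(FPKM + 1) minus the vector control mean was taken. It was 0.18, 0.20 and 0.25 in KO 1, 2 and 3, against 0.08, -0.08 and -0.05 in vector control 1, 2 and 3. All 3 KO libraries lay above all 3 vector controls, and vector control 1 lay closer to the KO libraries than the other controls did. Among the 28 members with a mean of at least 5 FPKM the order turned, with vector control 1 (0.24) above KO 1 to 3 (0.067, 0.16 and 0.23). With quantile normalization the KO medians were 0.081, 0.12 and 0.14. Over all tested rows the same medians ran from 0.08 to 0.09 in KO and from -0.03 to 0.05 in vector control. In bulk RNA, fewer cells that express a gene and less of its RNA per cell cannot be told apart. The members took 0.499%, 0.462% and 0.486% of the FPKM sum in KO 1 to 3 and 0.432%, 0.411% and 0.421% in vector control 1 to 3.

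**Figure D1:**
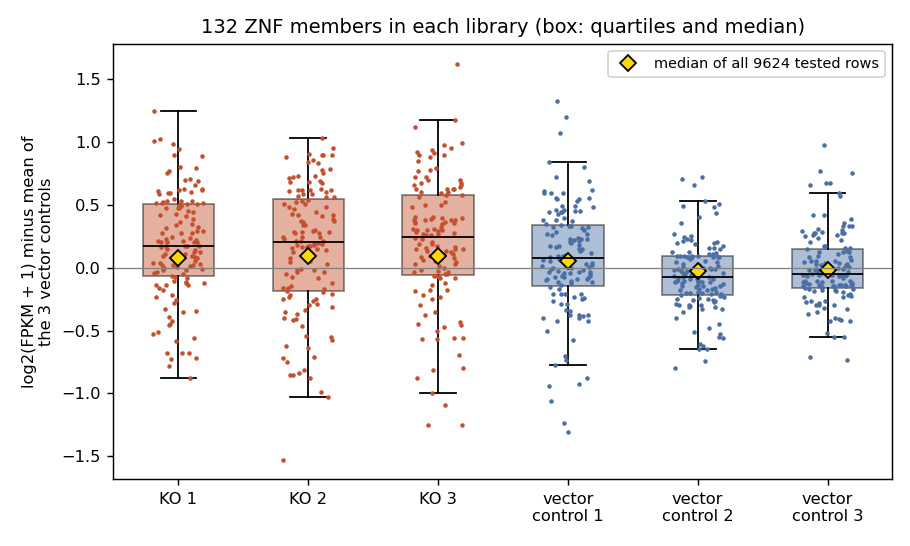
Level of the 132 ZNF members in each library, as log2(FPKM + 1) minus the mean of the 3 vector controls (points are members, boxes show quartiles and median), with the median of all 9624 tested rows as diamonds. The member medians are 0.18 to 0.25 in KO and -0.08 to 0.08 in vector control, and vector control 1 is the highest of the controls.

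Per gene, the shift was small against the spread between libraries. The test was limma on log2(FPKM + 1) over all 9624 rows, with a Benjamini-Hochberg adjusted p below 0.05 as the call. It called 1 of the 132 members (0.758%), higher in KO, where 1.35% of all tested rows were called, 0.509% higher and 0.842% lower. The median log2 fold change, KO minus vector control, was 0.21 over the members and 0.08 over all tested rows, and 89 members (67.4%) were above 0, against 59.3% of all rows. The standard error of a member ran from 0.14 to 0.61, with a median of 0.22. At an unadjusted p below 0.05, 25 members (18.9%) were higher and 5 (3.79%) lower, beside 11.5% higher and 6% lower of all tested rows. The groups did not overlap in 31 members (23.5%), which is near the 23.8% of all tested rows. Of these 31, 24 were higher in KO (18.2% of members, against 15.4% of all rows) and 7 lower (5.3%, against 8.35%).

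**Figure D2:**
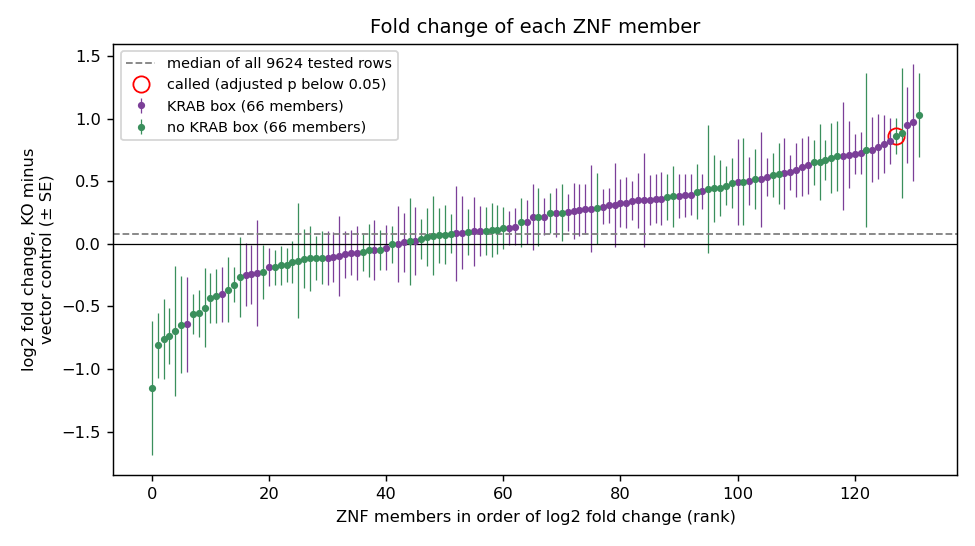
Log2 fold change of each of the 132 ZNF members (KO minus vector control, bars are ± SE from limma) in rank order, coloured by the presence of a KRAB box, with the median of all tested rows dashed. The circled member, ZNF691 at 0.86, is the single call, and the 5 lowest members have no KRAB box.

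ZNF691, a short C2H2 protein of 315 residues with 7 fingers and no KRAB box, was the member that rose. It stood at 3.67, 3.98 and 4.31 FPKM in KO 1 to 3, against 1.97, 1.53 and 1.74 FPKM in vector control 1 to 3. The lowest KO library was above the highest control, and vector control 1 lay with the other controls. Its log2 fold change was 0.86 (SE 0.15, limma adjusted p = 0.0421). The call is close to the threshold. It was lost without any single KO library and without vector control 2 or 3 (adjusted p from 0.0669 to 0.207), with quantile normalization (0.0767), without a filter (0.0544) and with the replicate number as a block (0.245). It held without vector control 1 (adjusted p = 0.0166) and with the histone share as a covariate (0.0182).

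KRAB zinc finger genes made up most of the members that were higher in all KO libraries. The 66 KRAB members had a median log2 fold change of 0.30, with 51 above 0, while the 66 members without the box had 0.07, with 38 above 0. Of the 24 members higher in every KO library, 17 had a KRAB box and 7 did not. All 7 members lower in every KO library lacked one. Over all tested rows 15.4% were higher and 8.35% lower in every KO library. By limma 0 KRAB members were called. At an unadjusted p below 0.05, 16 of them were higher and 0 lower, against 9 higher and 5 lower among members without the box, beside 11.5% higher and 6% lower of all tested rows. Since the members share libraries, no test of the difference between the classes was made. The median of the members without the box turned to -0.0039 with median scaling and -0.031 with quantile normalization, while that of KRAB members was 0.23 and 0.18. That of all tested rows moved as well, from 0.08 to -0.0013 with median scaling and 0.0265 with quantile normalization. The 37 KRAB members on chromosome 19, which holds many clusters of such genes, had a median of 0.31, and the 29 elsewhere 0.25. Whether each of the 37 lies in a cluster was not examined. Reads of near-identical copies could have been divided between KRAB genes, and the counting rule is not given in the sources used here.

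**Figure D3:**
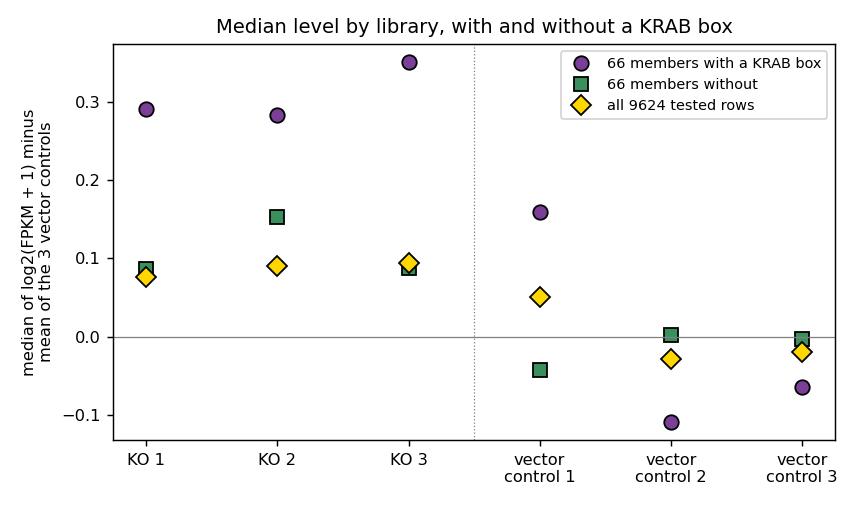
Median over the 66 members with and the 66 without a KRAB box, and over all tested rows, of log2(FPKM + 1) minus the mean of the 3 vector controls, for each library. KRAB members are at 0.28 to 0.35 in the KO libraries, 0.16 in vector control 1 and -0.11 and -0.06 in vector control 2 and 3.

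Among KRAB genes, ZNF680 stood at 4.22, 3.84 and 3.82 FPKM in KO 1 to 3, against 1.85, 1.28 and 2.4 FPKM in vector control 1 to 3. With a log2 fold change of 0.82 (SE 0.18) it did not pass (limma adjusted p = 0.0988). ZNF717, with 18 fingers, stood at 3.18, 2.93 and 2.71 FPKM in KO, against 1.81, 1.14 and 1.29 FPKM in vector control (0.72, SE 0.16, adjusted p = 0.0988). In both genes the groups were apart and no library of either group reached the other. ZNF45 averaged 3.55 ± 0.6 FPKM in KO and 1.75 ± 0.291 FPKM in vector control (SD, n = 3 each), with a log2 fold change of 0.72 and limma adjusted p = 0.106. ZNF460 was the most abundant KRAB member, at 18.13, 20.06 and 20.3 FPKM in KO and 11.95, 13.61 and 12.82 FPKM in vector control. Relative to their level its controls were the closest together of these 4 genes, and its log2 fold change was 0.57 (SE 0.14, limma adjusted p = 0.12).

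In other KRAB genes vector control 1 lay beside the KO libraries. ZNF189, with 16 fingers, stood at 7.45, 6.74 and 6.85 FPKM in KO 1 to 3, against 5.84, 2.38 and 2.09 FPKM in vector control 1 to 3 (log2 fold change 0.95, SE 0.30, limma adjusted p = 0.197). ZNF543 stood at 3.6, 4.19 and 4.44 FPKM in KO, against 3.11, 1.35 and 1.57 FPKM in vector control (0.80, adjusted p = 0.169). In each, the group difference came mostly from vector control 2 and 3. ZNF274, a KRAB protein known for binding the ends of other ZNF genes and bringing SETDB1 there, stood at 3.82, 4.06 and 4.16 FPKM in KO, against 3.56, 1.81 and 1.89 FPKM in vector control (0.59, SE 0.22, adjusted p = 0.233). ZNF786 sat just inside the 2 FPKM threshold, at 2.11, 3.09 and 3.08 FPKM in KO and 2.24, 0.77 and 0.9 FPKM in vector control.

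The KRAB repressors with a described target, from a list of 13 genes, had 5 members, and 0 of these were called by limma. ZNF274 had the highest fold change, was the single one of them at an unadjusted p below 0.05 and had groups that did not overlap. ZNF202, a repressor of lipid metabolism genes, had the lowest, at 2.34, 2.04 and 2.41 FPKM in KO and 3.79, 1.93 and 2.11 FPKM in vector control (-0.11, SE 0.21). That value turned to 0.11 without vector control 1. ZNF224, a repressor of the aldolase A gene, averaged 2.34 ± 0.665 FPKM in KO and 1.73 ± 0.387 FPKM in vector control (SD, n = 3 each; log2 fold change 0.28). The list's median was 0.28 over its members and 0.18 over its 9 tested genes, against 0.08 over all tested rows. Of all tested rows 1.35% were called, and the groups did not overlap in 23.8%. At an unadjusted p below 0.05, 11.5% of all tested rows were higher and 6% lower.

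The corepressor machinery on which KRAB proteins depend did not pass. Of 36 listed genes 28 were tested, and limma called 0, where 1.35% of all tested rows were called. At an unadjusted p below 0.05, 2 were higher and 1 lower, beside 11.5% higher and 6% lower of all tested rows. Their median log2 fold change was 0.03, against 0.08 over all tested rows. TRIM28 stood at 32.65, 54.38 and 47.66 FPKM in KO 1 to 3, against 51.31, 26.15 and 29.12 FPKM in vector control 1 to 3 (log2 fold change 0.36, SE 0.30, adjusted p = 0.575). That value was 0.18 without vector control 2, 0.21 without KO 2, 0.57 without KO 1 and 0.65 without vector control 1. With robust eBayes and array weights, a fit that called 41.8% of all tested rows, it was 0.78 (adjusted p = 0.0073). Its high libraries were KO 2, KO 3 and vector control 1, the same ones that had the higher histone share. SETDB1 was close to level, at 4.43 ± 0.272 FPKM in KO and 4.19 ± 0.238 FPKM in vector control (SD, n = 3 each; log2 fold change 0.07), and its sign turned with median scaling (-0.0099) and quantile normalization (-0.021). The 3 genes at an unadjusted p below 0.05 were named after their values were seen. The DNA methyltransferase gene DNMT3A averaged 2.56 ± 0.335 FPKM in KO and 1.19 ± 0.35 FPKM in vector control (0.71, limma adjusted p = 0.116). DNMT3B averaged 3.98 ± 0.854 FPKM in KO and 2.5 ± 0.286 FPKM in vector control (0.50, adjusted p = 0.231). The NuRD subunit gene MTA2 averaged 15.2 ± 1.45 FPKM in KO and 19.7 ± 0.703 FPKM in vector control (-0.36, adjusted p = 0.254).

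Among members without a KRAB box, the promoter and chromatin factors were divided. The list of 25 had 14 members, with a median log2 fold change of 0.03 and 7 on either side of 0. Limma called 0 of them, with 1 higher and 1 lower at an unadjusted p below 0.05, beside 11.5% and 6% of all tested rows. The groups did not overlap in 5 (35.7%), of which 4 were lower in KO, where 23.8% of all tested rows did not overlap and 8.35% were lower. Over the 16 tested genes of the list, 2 of them under 2 FPKM, the median was -0.06 and 7 were above 0. ZNF703 was called among these, and its values are given with the rows under 2 FPKM. ZNF143, an activator of small nuclear RNA and many protein-coding promoters, stood at 2.77, 2.62 and 2.67 FPKM in KO 1 to 3, against 3.34, 6.21 and 7.64 FPKM in vector control 1 to 3. The KO libraries lay close together, and vector control 1 was near them. The log2 fold change was -0.81 (SE 0.26, limma adjusted p = 0.197). Its paralogue ZNF76 stood at 2.34, 2.4 and 1.96 FPKM in KO, against 3.24, 2.88 and 3.03 FPKM in vector control (-0.33, adjusted p = 0.293). ZNF451, a SUMO ligase, averaged 5.07 ± 0.2 FPKM in KO and 5.9 ± 0.408 FPKM in vector control, and ZNF335, a subunit of a histone methyltransferase complex, 2.21 ± 0.1 FPKM in KO and 2.61 ± 0.225 FPKM in vector control (SD, n = 3 each). The log2 fold change was -0.19 for ZNF451 (adjusted p = 0.536) and -0.17 for ZNF335 (adjusted p = 0.571).

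**Figure D4:**
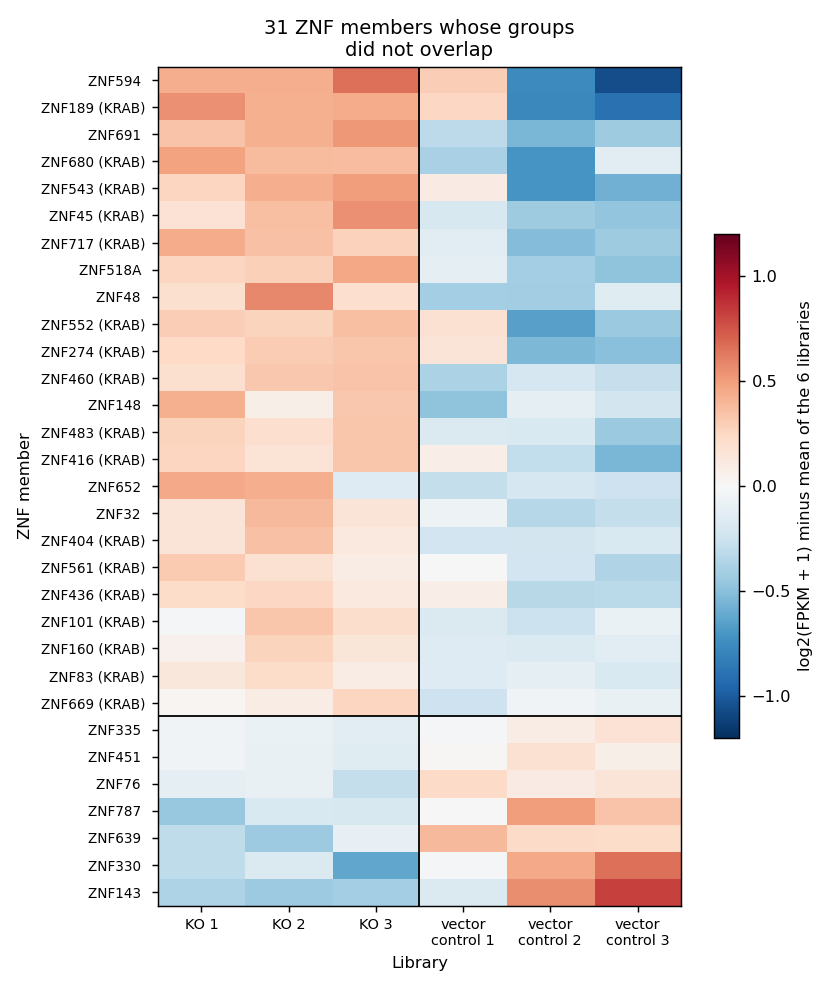
The 31 ZNF members whose KO and vector control libraries did not overlap, as log2(FPKM + 1) minus the mean of the 6 libraries (red higher, blue lower), ordered by log2 fold change. Above the line are 24 members higher in KO, 17 of them with a KRAB box, and below it 7 lower in KO, none with one; vector control 1 is paler than the other controls in many rows.

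No member that acts on RNA or ribosomes passed the test. Of 11 listed genes 8 were members, with a median log2 fold change of -0.12 and 5 below 0. Limma called 0, with 0 higher and 1 lower at an unadjusted p below 0.05, beside 11.5% and 6% of all tested rows. That one was the nucleolar protein gene ZNF330, at 3.04, 3.44 and 2.24 FPKM in KO 1 to 3, against 3.96, 5.87 and 6.88 FPKM in vector control 1 to 3 (-0.74, SE 0.22, adjusted p = 0.177). Over the 10 tested genes of the list 0 were called, with 0 higher and 2 lower at an unadjusted p below 0.05. The second was ZNF346 (-0.63, limma adjusted p = 0.278), whose values are given with the rows under 2 FPKM. ZNF593, whose yeast counterpart helps to export large ribosomal subunits, was the second most abundant member, at 24.54, 19.15 and 16.7 FPKM in KO and 20.31, 21.57 and 23.04 FPKM in vector control. Its groups overlapped (-0.11, SE 0.18), and the sign turned without KO 3 (0.0046). ZNF622, which also acts in large subunit assembly, averaged 9.98 ± 2.7 FPKM in KO and 10.9 ± 2.99 FPKM in vector control, with a fold change whose sign turned without KO 1 or vector control 1. The RNA-binding protein gene ZNF106 averaged 12.9 ± 0.89 FPKM in KO and 11.6 ± 3.08 FPKM in vector control (SD, n = 3 each). ZNF830 had the highest fold change of the list, at 6.74 ± 1.77 FPKM in KO and 4.74 ± 1.71 FPKM in vector control (0.44, adjusted p = 0.434).

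The most abundant member, ZNF217, divided the libraries within a group more than between groups. ZNF217 is an oncogene product amplified in several carcinomas that works with corepressor complexes. It stood at 27.65, 17.45 and 14.23 FPKM in KO 1 to 3, against 12.8, 44.22 and 53.55 FPKM in vector control 1 to 3. Vector control 1 was the lowest of the 6 libraries, so the groups overlapped (-0.69, SE 0.52, limma adjusted p = 0.533). ZNF296, whose mouse counterpart takes part in reprogramming to pluripotency, had the lowest fold change of all members (-1.15, SE 0.54, adjusted p = 0.317). It stood at 1.6, 0.44 and 0.74 FPKM in KO, against 0.68, 5.79 and 5.26 FPKM in vector control, again with vector control 1 among the KO libraries. ZNF770 showed the mirror image, at 15.74, 21.2 and 20.56 FPKM in KO and 26.24, 6.05 and 5.62 FPKM in vector control (0.89, SE 0.52, adjusted p = 0.419).

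The widest range of all members was that of ZNF281, a GC-box-binding factor studied in mouse pluripotent cells. It stood at 6.39, 1 and 8.57 FPKM in KO 1 to 3, against 1.68, 1.11 and 4.29 FPKM in vector control 1 to 3 (0.75, SE 0.61, adjusted p = 0.571). Its fold change was 1.44 without KO 2, 0.49 without KO 1, 0.31 without KO 3, 0.47 without vector control 2 and 1.13 without vector control 3. Here KO 2 was the lowest library, next to vector control 2, a pattern that follows neither the groups nor the histone share. ZNF24, named after its values were seen, ran alike, at 13.22, 4.3 and 10.65 FPKM in KO and 4.62, 3.52 and 12.93 FPKM in vector control. ZNF121 had a single low library, KO 2, at 7.43 FPKM, with the other KO libraries at 14.95 and 18.98 FPKM and the vector controls between 14.48 and 18.39 FPKM. Its fold change of -0.26 turned to 0.10 without that library.

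**Figure D5:**
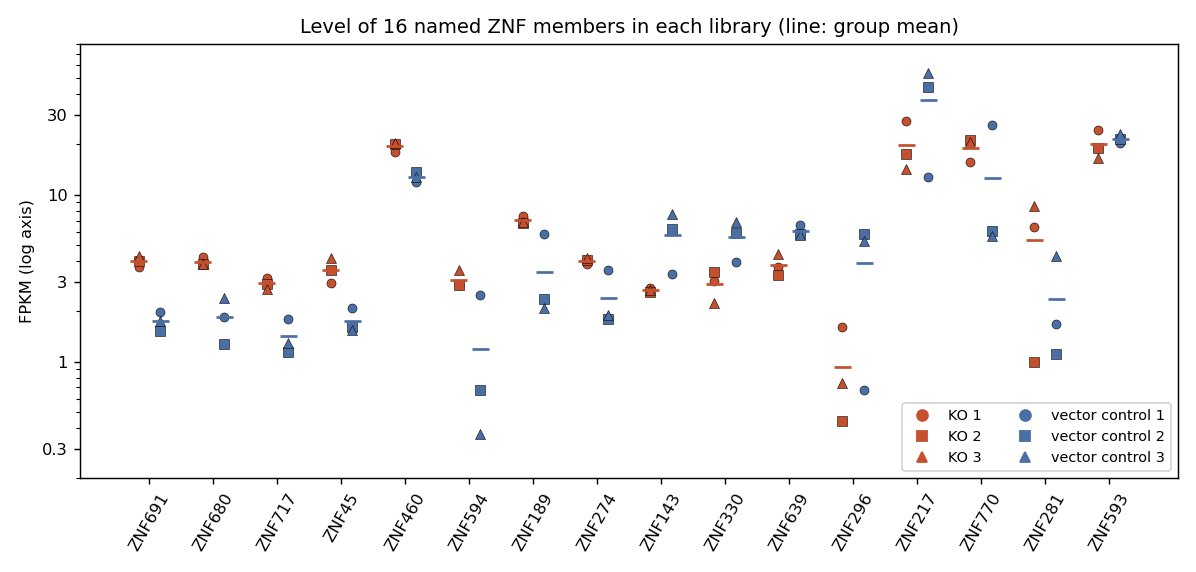
FPKM (log axis) of 16 named ZNF members in each library, KO left and vector control right for each gene, with the group mean as a line. ZNF691, ZNF680, ZNF717, ZNF45 and ZNF460 have separate groups, while in ZNF217, ZNF296 and ZNF770 vector control 1 (circle) lies with the KO libraries or beyond them.

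The remaining members of the named set without a KRAB box were of these same kinds. ZNF594, with 21 fingers, had the highest fold change of all members, at 2.87, 2.88 and 3.52 FPKM in KO, against 2.5, 0.68 and 0.37 FPKM in vector control (1.02, SE 0.34, limma adjusted p = 0.201). ZNF518A averaged 2.82 ± 0.299 FPKM in KO and 1.42 ± 0.337 FPKM in vector control (0.67, adjusted p = 0.117), and ZNF32, one of the 8 members at 10 FPKM or more, 12.6 ± 1.31 FPKM in KO and 8.89 ± 1.07 FPKM in vector control (0.46, adjusted p = 0.21). ZNF639 averaged 3.81 ± 0.578 FPKM in KO and 6.06 ± 0.457 FPKM in vector control (-0.56, adjusted p = 0.158), and ZNF787 3.44 ± 0.448 FPKM in KO and 5.56 ± 1.14 FPKM in vector control (-0.55, adjusted p = 0.208; SD, n = 3 each throughout). ZNF639 stood out among these because all 3 controls, at 6.59, 5.83 and 5.77 FPKM, were close together.

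The place of vector control 1 was common to many members. In 87 of 132 (65.9%) it lay closer to the KO mean than to the mean of vector control 2 and 3 on the log2 scale. Of all tested rows 60.8% did so, and 62.1% of those with a mean of 2 to 28 FPKM, the range of the members. Across the 132 members, log2 levels of vector control 1 correlated at r = 0.808 with KO 2 and 0.813 with KO 3, but at 0.595 and 0.568 with vector control 2 and 3, while those 2 controls correlated at 0.89. Over all tested rows these values were 0.925 and 0.932 against 0.904 and 0.906, and 0.979 between those 2 controls. The members cover a narrower range of levels than all tested rows, which by itself can lower r across genes. The size of the gap can therefore not be compared between members and all rows. Across the members KO 1 correlated at 0.786 with KO 2 and 0.819 with KO 3, and at 0.658 and 0.695 with vector control 2 and 3. These correlations are across genes of libraries from 1 cell line and describe the libraries only. When libraries of like histone share were set side by side, the median over members was 0.22 for KO 1 minus the mean of vector control 2 and 3, and 0.12 for the mean of KO 2 and KO 3 minus vector control 1. Over all tested rows the same medians were 0.09 and 0.04. Both differences were above 0 in 58 members (43.9%, against 34.9% of all rows) and below 0 in 21 (15.9%, against 22.5%). Among KRAB members 37 were higher and 5 lower by both, and among those without the box 21 and 16.

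Calls therefore depended on that library. Without vector control 1 limma called 37 members (28%), 28 higher and 9 lower, where 13.8% of all tested rows were called, 8.74% higher and 5.07% lower. Of the 28, 17 had a KRAB box, and of the 9, ZNF57 alone did. ZNF614 (1.57), ZNF770 (1.55), ZNF594 (1.43) and ZNF189 (1.31) then had the highest log2 fold changes and ZNF296 (-1.80), ZNF217 (-1.31), ZNF165 (-1.11), ZNF706 (-1.11) and ZNF143 (-1.10) the lowest. This fit left 2 controls, which correlated at 0.89 across the members and 0.979 over all tested rows. It was singled out because vector control 1 lay apart from them, so its calls describe these libraries only. In ZNF614 and ZNF770 vector control 1, at 4.24 and 26.24 FPKM, was above all KO libraries. With the histone share of each library as a covariate, 11 members (8.33%) were called, 9 higher and 2 lower, where 6.34% of all rows were called, 3.50% higher and 2.84% lower. The 9 were ZNF691, ZNF543, ZNF717, ZNF81, ZNF45, ZNF786, ZNF518A, ZNF148 and ZNF460, with log2 fold changes from 0.57 for ZNF460 to 0.84 for ZNF691, and the 2 were ZNF296 (-0.96) and ZNF706 (-0.65). The part of this division of the libraries in the differences between the groups was not tested further.

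The rows next below 2 FPKM were ZNF689, at 2.47, 2.21 and 2.66 FPKM in KO and 2.37, 1.01 and 1 FPKM in vector control, and ZNF346, a double-stranded RNA-binding protein gene, at 0.69, 2.42 and 0.97 FPKM in KO and 2.77, 2.36 and 2.35 FPKM in vector control. Just inside it were ZNF786 and ZNF224. In all, 110 ZNF rows under 2 FPKM were tested. Their median log2 fold change was 0.33, against 0.21 over the members, and 92 (83.6%) were above 0, against 59.3% of all tested rows. The groups did not overlap in 37.3%, against 23.8% of all tested rows. Rows this low can pass the filter through 1 group alone, so these shares are a description. Limma called 3 of the 110, ZNF253, ZNF610 and ZNF703, where 1.35% of all tested rows were called. Each of these 3 passed the filter on low values only through the group in which it was high, so the levels are given as a description and were chosen after they were seen. ZNF253 stood at 2.49, 2.2 and 3.66 FPKM in KO, against 0.42, 0.58 and 0.45 FPKM in vector control. ZNF610 stood at 1.45, 1.19 and 1.1 FPKM in KO, against 0.4, 0.22 and 0.37 FPKM in vector control. ZNF703, a breast cancer oncogene that is also on the promoter and chromatin list, stood at 0.89, 0.74 and 0.64 FPKM in KO, against 2.21, 2.12 and 1.79 FPKM in vector control.

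A further 70 rows joined a ZNF symbol with that of a neighbour and were not members. Of these 52 were tested, with a median log2 fold change of 0.30, against 0.08 over all tested rows, and 2 were called, where 1.35% of all tested rows were. Neither of the 2 reached 1 FPKM in all vector controls, and both passed the filter through the KO libraries, so their levels are a description. The row ZNF181;ZNF302 stood at 3.48, 3.85 and 4.16 FPKM in KO, against 1.68, 1.03 and 0.8 FPKM in vector control. The row ZNF808;ZNF701, which includes ZNF808, a KRAB gene known from human genetics for pancreas development, stood at 2.48, 2.39 and 2.9 FPKM in KO, against 1.18, 0.7 and 0.86 FPKM in vector control. The genes within a joined row cannot be told apart.

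Zinc finger genes under other names with a mean of at least 2 FPKM were also measured. The 25 ZBTB genes had a median log2 fold change of 0.15 with 0 called by limma (2 higher and 2 lower at an unadjusted p below 0.05), the 6 ZFP genes 0.14 with 0 called (1 higher, 0 lower) and the 7 ZSCAN and ZKSCAN genes 0.37 with 1 called. That call was ZSCAN30, which rose to 4.74, 3.3 and 4.78 FPKM in KO, against 1.79, 1.45 and 1.35 FPKM in vector control (1.05, adjusted p = 0.0411). Over all tested rows the median was 0.08, and 1.35% were called. At an unadjusted p below 0.05, 11.5% of all tested rows were higher and 6% lower. No difference between these families and the ZNF members was tested.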

How the data were processed

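The deposited table held FPKM given to 2 decimals, 1 column per library, scaled by the authors to transcript length and library size, per the file headers. cutadapt, FastQC and HISAT2 with hg19 were used, per the submitters' processing notes. Tool versions, the FPKM program, the gene models and any strand setting were not given in the sources used here, so depth is unknown, and reads of overlapping or near-identical genes may be shared. Columns were matched to samples by description and title.

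limma 3.58.1 in R 4.3.3 (lmFit, eBayes with trend, two-sided) was fitted to log2(FPKM + 1) over rows at 1 FPKM or more in 3 or more of the 6 libraries. Fold changes on this scale understate those of low genes. The fit was also run on simulated data with independent noise in each library. Such data lack the division of the libraries described above, so they cannot vouch for calls under it. Fingers and KRAB boxes came from translated GENCODE 29 transcripts on GRCh38 (Biopython 1.88; a finger as cysteines and histidines at the usual C2H2 spacing, KRAB at an alignment score of at least 60), and promoters from RefSeq. Members and lists were chosen with earlier results of these data known. The named genes were the called members, the 8 highest and up to 8 lowest without overlap, the 8 most abundant, the 4 widest in range, those beside the threshold and the ends of each role list. Other genes named were chosen after their values were seen. Alternatives varied the pseudocount, filter, scaling, limma settings, covariate, replicate block, threshold, membership and libraries.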

Additional observations from a re-analysis of the deposited data

How the results depend on the processing

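The family median log2 fold change (0.21) was above 0 under every alternative run. So was the median of all tested rows (0.08), except with median scaling (-0.0013). The family median was 0.29 with a pseudocount of 0.1, 0.12 with a filter at 5 FPKM, 0.15 with median scaling and 0.10 with quantile normalization. It was 0.10 for the 28 members with a mean of at least 5 FPKM, and 0.17 to 0.25 when 1 library was left out. The median of all tested rows was 0.0925 with that pseudocount, 0.0242 with that filter and 0.0265 with quantile normalization. When 1 library was left out it was 0.06 to 0.09. Members called numbered 0 without a filter (1.67% of all tested rows were called), with a filter at 5 FPKM (1.14%) and with quantile normalization (1.35%). They numbered 0 at a mean of at least 5 FPKM (1.35% of all rows) and 0 at an adjusted p below 0.01 (0.322%). With joined rows 2 were called (1.35% of all rows), and 3 at a mean of at least 1 FPKM (1.35%) or an adjusted p below 0.10 (2.85%). The histone share gave 11 (6.34% of all rows), and robust eBayes with array weights 65 (41.8%). Leaving out 1 library gave 37 calls without vector control 1 (13.8% of all rows were called) and 0 without any other (0.26% to 1.26%). The 31 members without overlap became 36 to 75, with 75 without vector control 1 (52.8% of all tested rows then did not overlap) and 53 without KO 1 (39.9% of all rows). Without any other library they were 36 to 42 of 132, where 27.6% to 29.6% of all tested rows did not overlap. Groups separate more easily with 2 libraries in a group, so these counts rise over all rows too. That count was 6 of 33 with a filter at 5 FPKM (21% of all rows), 4 of 28 at a mean of at least 5 FPKM and 70 of 236 at a mean of at least 1 FPKM (23.8% of all rows for both). The family level moved to 0.081, 0.12 and 0.14 in KO 1 to 3 with quantile normalization, to 0.14 and 0.15 in KO 2 and 3 with median scaling, and for members of at least 5 FPKM to 0.067 in KO 1 and 0.24, -0.15 and -0.12 in vector control 1 to 3, so that among these members vector control 1 lay above all KO libraries. Deviations of same-numbered libraries from their group means correlated at -0.374, -0.153 and -0.264, and those of other pairs at -0.263 to 0.324. With 3 libraries a group, these values cannot tell whether the replicate numbers mark a shared culture or day. With the replicate block 0 members were called, where 0.0727% of all tested rows were. Signs turned for SETDB1 with median scaling (-0.0099) and quantile normalization (-0.021), for ZNF202 with array weights (0.10) and for ZNF622 with array weights (0.23). With 1 library left out, ZNF121 ran from -0.53 to 0.10 (positive without KO 2), ZNF593 from -0.26 to 0.0046 (without KO 3), ZNF202 from -0.24 to 0.11 (without vector control 1) and ZNF622 from -0.25 to 0.10 (positive without KO 1 or vector control 1). The causes were not tested. Depth is unknown, and 3 libraries a group limit the precision.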
